A study of Mus musculus with 6 samples.

Results

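Oxidative phosphorylation subunits are the nuclear-encoded proteins that build the 4 respiratory complexes and the ATP synthase of the inner mitochondrial membrane. Their transcripts were followed in NCI-H2228 tumours after a single dose of an ALK inhibitor. Members were genes whose symbol starts with NDUFA, NDUFB, NDUFC, NDUFS or NDUFV (without the NDUFAF assembly factors), SDHA to SDHD, UQCR or CYC1, COX4 to COX8, or ATP5. Each was read from its brightest probe set that carries only that gene. Such a probe set was found for 78 subunit genes, and 71 of them had a mean log2 intensity of at least 4 over the 6 arrays and were tested, among 10271 tested genes of the whole array. The 71 comprised 33 genes of complex I, 3 of complex II, 7 of complex III, 11 of complex IV and 17 of complex V. The 7 others lay under that level: COX4I2, COX6A2, COX6B2, COX7A1, COX7B2, COX8C and ATP5MF. A further 5 (NDUFC2, NDUFS5, NDUFS8, UQCRH and UQCRHL) have only probe sets shared with another gene and were not used, as were 5 pseudogenes and antisense or divergent transcripts that share the symbols.

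NCI-H2228 is a line of human lung adenocarcinoma cells with an EML4-ALK gene fusion, and all tumours were grown from it as subcutaneous xenografts in SCID mice, which lack mature lymphocytes. The mice were dosed by mouth with vehicle or with CH5424802, an ALK kinase inhibitor later named alectinib, at 4 or 20 mg/kg. Tumours were taken 6 h after the dose, and total RNA was hybridised to a human Affymetrix array, with 2 arrays in each of the 3 groups. Whether arrays of a group stem from different mice is not stated in the labels; the p-values therefore reflect only how these arrays spread, which may be technical. They name mouse as the organism although the array carries human probe sets, and how far mouse transcripts hybridise to them was not tested.

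Complexes I and II pass electrons from NADH and succinate to coenzyme Q. Complex III hands them through cytochrome c to complex IV, which reduces oxygen, and complexes I, III and IV pump protons across the membrane. The ATP synthase, complex V, lets the protons back and makes ATP. Tumours with active receptor tyrosine kinases are known for strong glycolysis, and many of them respire at the same time.

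Maximum intensities ran from 42429 to 47036 over the arrays, and arrays of a group correlated at r = 0.992 to 0.997 across the tested genes, which are not independent replicates. The median log2 intensity of the tested genes was highest in 4 mg/kg replicate 2, at 8.755, and lowest at 8.559. The control probe set for 18S ribosomal RNA had intensities of 1713.4 and 4058.3 in vehicle replicates 1 and 2, against 374.2 to 637.1 in the other 4. DUSP6, a feedback phosphatase of the MAPK pathway used as a check of drug action, fell by 5.47 on the log2 scale at 20 mg/kg. At 4 mg/kg its difference was -0.43, which did not pass (adjusted p = 0.298). KLHL24, another check gene chosen with earlier results of these data known, rose by 2.84 at 20 mg/kg. At 4 mg/kg it rose by 1.34 (adjusted p = 0.0485 in limma), where 0.0584% of all genes passed. In such bulk tissue, fewer cells of a type and less RNA per cell cannot be told apart.

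At 20 mg/kg most subunit transcripts lay slightly below vehicle. The log2 difference was below 0 for 53 of 71 subunits, against 49.4% of all tested genes, and above 0 for 16, against 41.8%. The median difference was -0.11 over the subunits and 0 over all genes. Differences were small: 4 subunits (SDHD, NDUFA5, NDUFV3 and NDUFA13) differed by more than 0.5 in either direction, which is 5.63% of them against 20.6% of all genes. None of the 71 subunits passed an adjusted p of 0.05 in limma, where 4.33% of all tested genes did. Without adjustment, 15 subunits were lower and 3 higher at p under 0.05, against 11.5% and 12.7% of all genes. Without vehicle replicate 2 the median was -0.07, and without vehicle replicate 1, 6 subunits passed (ATP5F1B, COX8A, NDUFA5, NDUFB2, SDHC and SDHD), 8.45% against 7.84% of all genes. Centring the arrays on their median gave 9 passing subunits, 12.7% against 19.1% of all genes. Quantile normalization gave 4, which is 5.63% against 15% of all genes.

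At 4 mg/kg the subunits leaned the other way by less. Against vehicle, 43 lay above 0 and 27 below, where the whole array had 45.3% above and 47% below, and the median difference was 0.04. No subunit passed in limma, where 0.0584% of all genes did. At an unadjusted p under 0.05, 13 subunits were higher and 0 lower, against 12.2% and 4.76% of all genes. These counts moved with the scaling and with single arrays, and so did those of all genes. With the arrays centred on their median, 28 subunits lay above 0, which is 39.4% against 32.1% of all genes, and the median was -0.06. In these centred values 2 subunits, NDUFA5 and SDHD, passed, 2.82% against 7.46% of all genes. Without 4 mg/kg replicate 2, the array of the highest overall median, 35 lay above 0 and 34 below, with 49.3% above against 38.3%. Without vehicle replicate 1, 37 lay above 0 and 33 below, with 52.1% above against 43.1%. In that setting 4 passed (NDUFA5, NDUFB6, SDHC and SDHD), 5.63% against 4.56% of all genes. Without vehicle replicate 2, 57 lay above 0 and 12 below, with 80.3% above against 50%.

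Between the doses the order was more even across the subunits. The 20 mg/kg mean lay below the 4 mg/kg mean for 64 of 71, where 51.6% of all genes had that order, and above it for 6, against 39.7%. The median difference was -0.16 over the subunits and -0.01 over all genes. In limma 0 of the 71 passed, against 0.37% of all genes, while at an unadjusted p under 0.05, 23 subunits were lower and 0 higher, against 8.79% and 4.62%. In the quantile-normalized values 59 subunits had this order, 83.1% against 43.9% of all genes, and in the centred values 58, 81.7% against 38.1%. It held with each array left out in turn for between 58 and 64 subunits. Without 4 mg/kg replicate 1, NDUFS6 passed, 1.41% of the subunits against 2.09% of all genes. The 3 comparisons reuse the same 6 arrays, so they are not independent of each other.

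**Figure D1:**
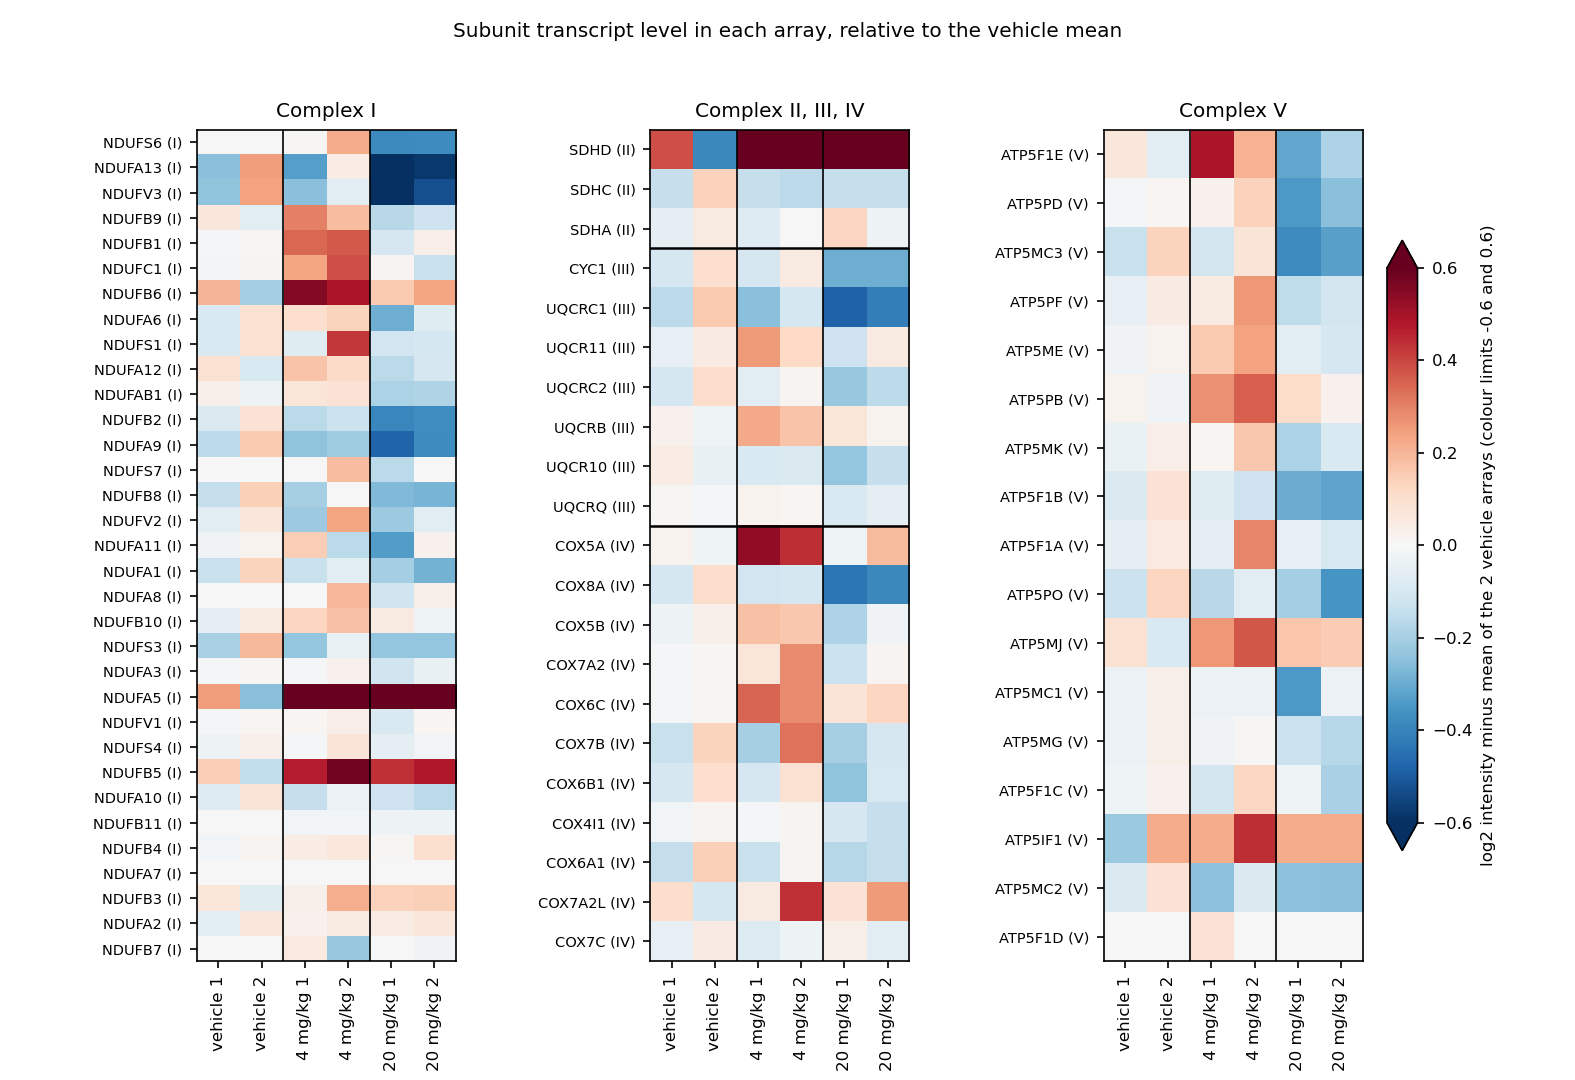
Log2 intensity of each of the 71 tested subunits (rows, sorted within each complex by the difference between the doses) in each of the 6 arrays (columns), as the difference from the mean of the 2 vehicle arrays, with colours limited at -0.6 and 0.6. Most rows of complexes I, III, IV and V are bluer in the 20 mg/kg columns than in the 4 mg/kg columns, while SDHD, NDUFA5 and NDUFB5 are red in all 4 treated arrays.

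Complex I is the largest of the complexes and takes electrons from NADH. Its median log2 difference was -0.08 at 20 mg/kg and 0.04 at 4 mg/kg against vehicle, and -0.15 between the doses, with 29 of 33 subunits lower at the higher dose. Of its 3 parts, the N module, which oxidises NADH, had a median of -0.12 over 10 subunits at 20 mg/kg against vehicle. The Q module, which hands the electrons to coenzyme Q, had -0.16 over 4, and the proton-pumping membrane arm had -0.06 over 19. The spread inside each part was wider than the gap between these medians, from -0.62 to 0.06 in the N module, -0.43 to 0.91 in the Q module and -0.61 to 0.46 in the membrane arm.

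NDUFA5, an accessory subunit of the Q module, stood at log2 10.07 and 9.57 in vehicle replicates 1 and 2, 10.75 and 10.88 after 4 mg/kg, and 10.71 and 10.76 after 20 mg/kg. Every treated array exceeded both vehicle arrays, and the doses overlapped. The difference was 0.91 ± 0.19 (SE; 95% interval 0.37 to 1.46) at 20 mg/kg, adjusted p = 0.0963, and 0.99 ± 0.19 at 4 mg/kg, adjusted p = 0.171. At 20 mg/kg it passed with quantile normalization (adjusted p = 0.0348), with centred arrays (0.01) and without vehicle replicate 1 (0.0336). The lower vehicle array, replicate 2, was also the array of the highest 18S reading, whose part in this difference was not tested. Without it the difference at 20 mg/kg was 0.66.

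NDUFB5, in the membrane arm, had the same order of arrays. It read 12.00 and 11.71 in vehicle, 12.33 and 12.44 after 4 mg/kg, and 12.30 and 12.34 after 20 mg/kg. Its differences were 0.46 ± 0.12 at 20 mg/kg (adjusted p = 0.128) and 0.53 ± 0.12 at 4 mg/kg (adjusted p = 0.186).

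The lowest adjusted p of any subunit belonged to NDUFAB1, the mitochondrial acyl carrier protein, which serves fatty acid synthesis and is also bound to complex I. It read 12.95 and 12.89 in vehicle, 12.99 and 13.01 after 4 mg/kg, and 12.73 and 12.74 after 20 mg/kg. The 20 mg/kg arrays lay below the other 4 and the 4 mg/kg arrays above them. The difference was -0.18 ± 0.03 against vehicle (95% interval -0.27 to -0.10, adjusted p = 0.0662) and -0.27 ± 0.03 against 4 mg/kg (adjusted p = 0.0931).

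NDUFS6, a zinc-binding accessory subunit of the N module, was lowest in both 20 mg/kg arrays. It read an exactly equal 12.55 in both vehicle arrays, 12.55 and 12.77 after 4 mg/kg, and 12.16 and 12.17 after 20 mg/kg. The difference was -0.38 ± 0.08 against vehicle (adjusted p = 0.0984) and -0.49 ± 0.08 against 4 mg/kg (adjusted p = 0.139). It passed against vehicle without 4 mg/kg replicate 1 or 2 (adjusted p = 0.0394 and 0.0393), with quantile normalization (0.0367) and with centred arrays (0.0376).

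Larger but looser differences stood in NDUFV3 and NDUFA13. NDUFV3, an accessory subunit beside the NADH-oxidising site, read 9.68 and 10.16 in vehicle, 9.67 and 9.86 after 4 mg/kg, and 9.21 and 9.39 after 20 mg/kg, a difference of -0.62 ± 0.20 for 20 mg/kg against vehicle (adjusted p = 0.189). NDUFA13, a membrane arm subunit also known as GRIM-19, read 11.71 and 12.21, 11.63 and 12.01, and 11.32 and 11.38, a difference of -0.61 ± 0.23 (adjusted p = 0.233). In both genes the 20 mg/kg arrays lay below the other 4, and the gap between the vehicle arrays was nearly as wide as the difference itself. Both passed with centred arrays.

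NDUFB2 and NDUFA9 descended through all 3 groups without overlap, as did NDUFB11 and UQCR10 by smaller steps. The share of all genes with this order was not counted. NDUFB2, of the membrane arm, read 12.67 and 12.84, then 12.59 and 12.63, then 12.36 and 12.38, with a difference of -0.38 ± 0.07 at 20 mg/kg against vehicle (adjusted p = 0.0798). Its next brightest probe set gave -0.43 there, but 0.03 at 4 mg/kg, with the arrays of vehicle and 4 mg/kg overlapping. NDUFA9, a Q module subunit that binds a nucleotide cofactor, read 9.72 and 10.04, then 9.64 and 9.67, then 9.40 and 9.50, with -0.43 ± 0.12 (adjusted p = 0.155).

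Several membrane arm subunits peaked at the middle dose. NDUFB1 read 11.74 and 11.76 in vehicle, 12.10 and 12.12 after 4 mg/kg, and 11.65 and 11.79 after 20 mg/kg, so that 4 mg/kg stood 0.36 ± 0.06 above vehicle (adjusted p = 0.155) and 20 mg/kg stood 0.39 below 4 mg/kg (log2 difference -0.39 ± 0.06, adjusted p = 0.121). NDUFB6, NDUFB9 and NDUFC1 were also highest in both 4 mg/kg arrays, with differences of 0.52, 0.25 and 0.31 for 4 mg/kg against vehicle and -0.32, -0.39 and -0.37 between the doses. None of the 4 had both 20 mg/kg arrays above vehicle.

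The catalytic core of the N module showed small differences in the probe sets used. NDUFV1, which holds the flavin that accepts electrons from NADH, differed by -0.04 (95% interval -0.17 to 0.09) at 20 mg/kg and 0.03 at 4 mg/kg. NDUFS1, the largest iron-sulphur subunit, differed by -0.11 and 0.18, with an interval from -0.67 to 0.45 at 20 mg/kg. An interval this wide leaves a difference of the size seen in NDUFV3 possible for NDUFS1. The next brightest NDUFS1 probe set gave -0.12 at 20 mg/kg and -0.03 at 4 mg/kg. A dimmer one gave 0.54 and 0.37, with every treated array above both vehicle arrays. NDUFA7, the tested subunit nearest to the required level of 4, read 5.06 in all 6 arrays.

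Complex II, succinate dehydrogenase, belongs to both the citrate cycle and the electron transport chain and pumps no protons. Its 3 measured subunits showed no common direction. SDHD, one of the membrane anchors that hold the haem and the quinone site, showed the largest difference of any subunit. It stood at 11.19 and 10.41 in vehicle, 12.48 and 12.33 after 4 mg/kg, and 12.21 and 12.22 after 20 mg/kg. All 4 treated arrays exceeded both vehicle arrays, and the 4 mg/kg arrays exceeded the 20 mg/kg arrays.

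The SDHD level was 2.67-fold that of vehicle at 20 mg/kg (log2 difference 1.42 ± 0.29, 95% interval 0.58 to 2.25, adjusted p = 0.0939) and 3.05-fold at 4 mg/kg (1.61 ± 0.29, adjusted p = 0.167). It passed at 20 mg/kg with quantile normalization (adjusted p = 0.0322), with centred arrays (0.00653) and without vehicle replicate 1 (0.0249). Without vehicle replicate 2, the array of the highest 18S reading, the log2 difference at 20 mg/kg was 1.03 and at 4 mg/kg 1.22. The other SDHD probe set lay at the array's floor of log2 2.19 in all 6 arrays and gave no second reading.

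SDHC, the partner anchor, read 11.31 and 11.59 in vehicle, 11.31 and 11.29 at 4 mg/kg, and 11.31 in both 20 mg/kg arrays. Apart from vehicle replicate 2 the arrays were nearly equal. Its difference of -0.14 ± 0.10 at 20 mg/kg came to 0.0002 without that array, and its next brightest probe set gave 0.06. Without vehicle replicate 1 it passed in both dose comparisons. SDHA, the flavin-bearing subunit that oxidises succinate, read 9.38 and 9.49, 9.36 and 9.44, and 9.56 and 9.40, with all groups overlapping and an interval of -0.18 to 0.27 for 20 mg/kg against vehicle. SDHB was not analysed here.

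**Figure D2:**
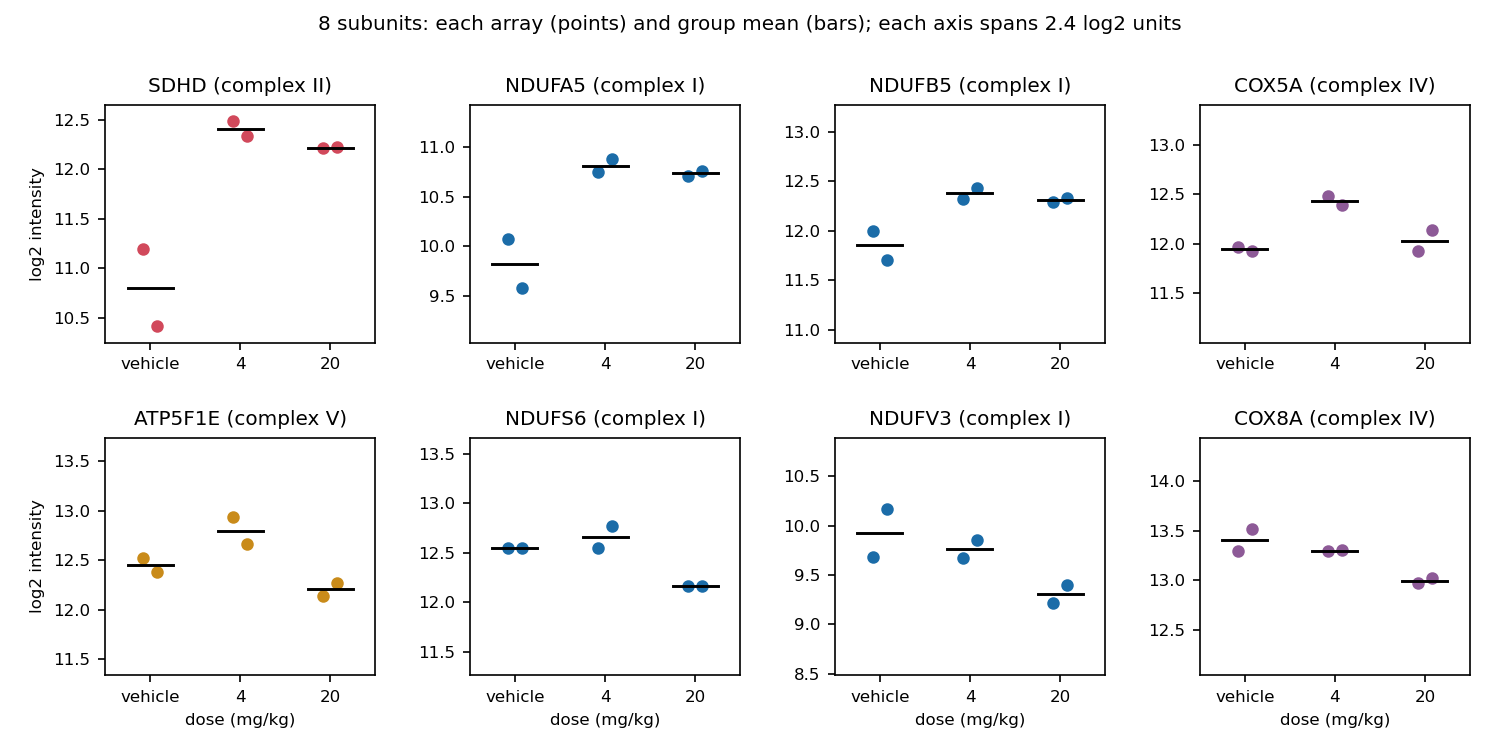
Log2 intensity of 8 subunits in each array (points) with the group mean (bars), by dose; every axis spans 2.4 log2 units. SDHD, NDUFA5 and NDUFB5 are lowest in both vehicle arrays, COX5A and ATP5F1E are highest in both 4 mg/kg arrays, and NDUFS6, NDUFV3 and COX8A are lowest in both 20 mg/kg arrays.

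Complex III, the cytochrome bc1 complex, had the same direction between the doses in all the probe sets used. All 7 measured subunits were lower at 20 mg/kg than at 4 mg/kg, with the arrays of the doses apart in all 7, an order that 22.8% of all tested genes shared. No subunit of any complex had the arrays apart the other way, against 13.6% of all genes. The median difference was -0.17, with a range from -0.27 to -0.09. Against vehicle the median was -0.18 at 20 mg/kg, with 5 of 7 apart on the low side against 25.9% of all genes, and -0.02 at 4 mg/kg. Between the doses, the next brightest probe sets of UQCRB and UQCRC2 gave -0.12 and -0.19, while a dimmer one of each gave 0.20 and 0.05. For 20 mg/kg against vehicle, these next brightest probe sets gave 0.06 and -0.49, and the dimmer ones 0.22 and 0.93. In the dimmer UQCRC2 probe set every treated array lay above both vehicle arrays.

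UQCRC1, one of the core proteins on the matrix side, read 8.98 and 9.30 in vehicle, 8.89 and 9.03 after 4 mg/kg, and 8.65 and 8.73 after 20 mg/kg. The difference at 20 mg/kg was -0.45 ± 0.13 (95% interval -0.82 to -0.08, adjusted p = 0.155), and it passed with centred arrays (0.0375). CYC1, cytochrome c1, which delivers electrons to cytochrome c, read 7.99 and 8.19, 7.99 and 8.14, and 7.79 in both 20 mg/kg arrays. Its difference was -0.29 ± 0.09 (adjusted p = 0.182). In both genes the 20 mg/kg arrays lay below all others, while vehicle and 4 mg/kg overlapped.

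The small subunits UQCRB and UQCR11 were highest at 4 mg/kg. UQCRB, which sits near the quinone site, read 12.17 and 12.13 in vehicle, 12.38 and 12.32 after 4 mg/kg, and 12.22 and 12.17 after 20 mg/kg, with 0.20 ± 0.04 for 4 mg/kg against vehicle (adjusted p = 0.171). UQCR11 read 12.48 and 12.59, 12.79 and 12.65, and 12.41 and 12.59, with 0.19 ± 0.09 (adjusted p = 0.447). UQCRQ, a further small subunit, spanned only 13.80 to 13.91 over the 6 arrays and still had the arrays of 20 mg/kg below all others.

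Complex IV, cytochrome c oxidase, is built around mitochondrially encoded subunits, and the genes measured here encode the surrounding nuclear ones. Its median difference was -0.10 at 20 mg/kg and 0.06 at 4 mg/kg against vehicle, and -0.21 between the doses, with 10 of 11 subunits lower at the higher dose. The exception was COX7C, at 0.04, though its next brightest probe set gave -0.15. The next brightest probe sets of COX5B and COX6A1 gave 0.05 and 0.12 between the doses, and that of COX4I1 gave -0.14. Against vehicle 2 of 11 had both 20 mg/kg arrays below both vehicle arrays, as had 25.9% of all genes.

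COX5A, a subunit on the matrix side, carried the largest 4 mg/kg difference of the complex. It read 11.97 and 11.92 in vehicle, 12.48 and 12.39 after 4 mg/kg, and 11.92 and 12.13 after 20 mg/kg. The 4 mg/kg arrays stood above all others, by 0.49 ± 0.09 over vehicle (95% interval 0.24 to 0.74, adjusted p = 0.166), and 20 mg/kg overlapped vehicle. The difference between the doses was -0.41 ± 0.09 (adjusted p = 0.203).

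COX6C, a small membrane subunit, had the lowest adjusted p of the 4 mg/kg comparison among the subunits, 0.138. It read 13.70 and 13.72 in vehicle, 14.06 and 13.99 after 4 mg/kg, and 13.78 and 13.84 after 20 mg/kg. The groups did not overlap in any of the 3 comparisons, with differences of 0.32 ± 0.04 at 4 mg/kg and 0.10 ± 0.04 at 20 mg/kg against vehicle. COX8A, the ubiquitous form of the smallest subunit, was lowest in both 20 mg/kg arrays. It read 13.30 and 13.51, 13.29 and 13.30, and 12.97 and 13.02, a difference of -0.41 ± 0.08 at 20 mg/kg (adjusted p = 0.0925). It passed with quantile normalization (0.049), with centred arrays (0.0429) and without vehicle replicate 1 (0.0325).

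COX7A2L, a relative of COX7A known for joining complexes III and IV into supercomplexes, read 10.67 and 10.46 in vehicle, 10.62 and 11.00 after 4 mg/kg, and 10.65 and 10.82 after 20 mg/kg. Its groups overlapped, with 0.17 ± 0.17 at 20 mg/kg. COX4I1, the ubiquitous form of the regulatory subunit that binds ATP, was lower at 20 mg/kg by a small and tight step. It read 13.43 and 13.46 in vehicle, the same values to 2 decimals after 4 mg/kg, and 13.34 and 13.30 after 20 mg/kg, a difference of -0.12 ± 0.03 (adjusted p = 0.111).

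Of the paired isoforms of complex IV, the restricted forms lay under the mean level of 4 required for testing. The hypoxia-induced COX4I2 read 3.09 to 3.23 and the muscle form COX6A2 3.51 to 3.66, the latter with both vehicle arrays above the other 4. COX7A1, a muscle form, and COX6B2, COX7B2 and COX8C, known from testis, lay at the floor of 2.19 in every array. Their ubiquitous partners could be read in every array. COX6A1 read 13.23 to 13.55, COX6B1 10.70 to 11.04, COX7A2 12.22 to 12.63 and COX7B 11.65 to 12.17. COX6A1, COX6B1 and COX7B overlapped between vehicle and both doses, and COX7A2 was higher in both 4 mg/kg arrays, by 0.18 ± 0.10 over vehicle.

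The gene once called NDUFA4, now counted with complex IV, is listed as COXFA4 and so falls outside the naming rule. It read 12.65 and 12.64 in vehicle, 12.92 and 12.81 after 4 mg/kg, and 12.65 and 12.62 after 20 mg/kg. Its 4 mg/kg arrays lay above the other 4. The hypoxia-induced relative COXFA4L2 read 2.20 in all 6 arrays, at the floor.

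Complex V was lower at 20 mg/kg than at 4 mg/kg in all 17 tested subunits, with the arrays apart in 11, against 22.8% of all genes. The median difference between the doses was -0.19, and against vehicle it was -0.14 at 20 mg/kg and 0.08 at 4 mg/kg. Against vehicle, 11 of 17 had both 20 mg/kg arrays below both vehicle arrays, against 25.9% of all genes, and 2 had both above, against 24.5%. Between the doses the medians were -0.27 over the 4 peripheral stalk subunits, -0.19 over the 5 of the F1 head and -0.15 over the 3 genes of the c ring.

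In the F1 head, which makes ATP, the catalytic beta subunit ATP5F1B read 13.55 and 13.73 in vehicle, 13.57 and 13.52 after 4 mg/kg, and 13.34 and 13.32 after 20 mg/kg. The difference was -0.31 ± 0.07 at 20 mg/kg (95% interval -0.50 to -0.11, adjusted p = 0.108), and it passed without vehicle replicate 1 (0.0421). ATP5F1A, the alpha subunit, overlapped in all comparisons, with -0.07 and an interval of -0.47 to 0.32. ATP5F1E, the small epsilon subunit, showed the widest step between the doses of any of the 71 in the probe sets used. It read 12.52 and 12.39, 12.94 and 12.66, and 12.14 and 12.27, and the doses differed by -0.60 ± 0.12 (adjusted p = 0.191). ATP5F1D, also of the F1 head, differed by -0.04 between the doses and by 0 at 20 mg/kg against vehicle. Its next brightest probe set gave -0.74 and -0.60 in these comparisons.

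The peripheral stalk holds the head still against the turning rotor. ATP5PD, its d subunit, read 12.85 and 12.87 in vehicle, 12.89 and 13.00 after 4 mg/kg, and 12.52 and 12.61 after 20 mg/kg. Its difference was -0.30 ± 0.06 at 20 mg/kg against vehicle (adjusted p = 0.0846) and -0.38 ± 0.06 against 4 mg/kg (adjusted p = 0.124). ATP5PB, the b subunit, stood 0.32 ± 0.05 above vehicle at 4 mg/kg (adjusted p = 0.157) and 0.07 above it at 20 mg/kg.

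The c ring is the proton-driven rotor, and ATP5MC1, ATP5MC2 and ATP5MC3 encode the same mature c subunit. ATP5MC3 read 13.35 and 13.61 in vehicle, 13.37 and 13.55 after 4 mg/kg, and 13.10 and 13.15 after 20 mg/kg, a difference of -0.35 ± 0.12 (adjusted p = 0.201). ATP5MC2 read 12.15 and 12.33, 11.99 and 12.15, and 11.99 in both 20 mg/kg arrays. ATP5MC1 read 7.70 and 7.77, 7.70 in both 4 mg/kg arrays, and 7.39 and 7.70. All 3 were lower on average at 20 mg/kg than in vehicle, with the arrays apart in ATP5MC2 and ATP5MC3.

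ATP5IF1, which blocks the enzyme from running backwards and splitting ATP, was higher on average at both doses. It read 10.21 and 10.65 in vehicle, 10.65 and 10.87 at 4 mg/kg, and 10.65 in both 20 mg/kg arrays. Only vehicle replicate 1 and 4 mg/kg replicate 2 departed from 10.65. Its 2 other probe sets gave -0.0008 and -0.01 at 4 mg/kg against 0.33 from the brightest one.

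**Figure D3:**
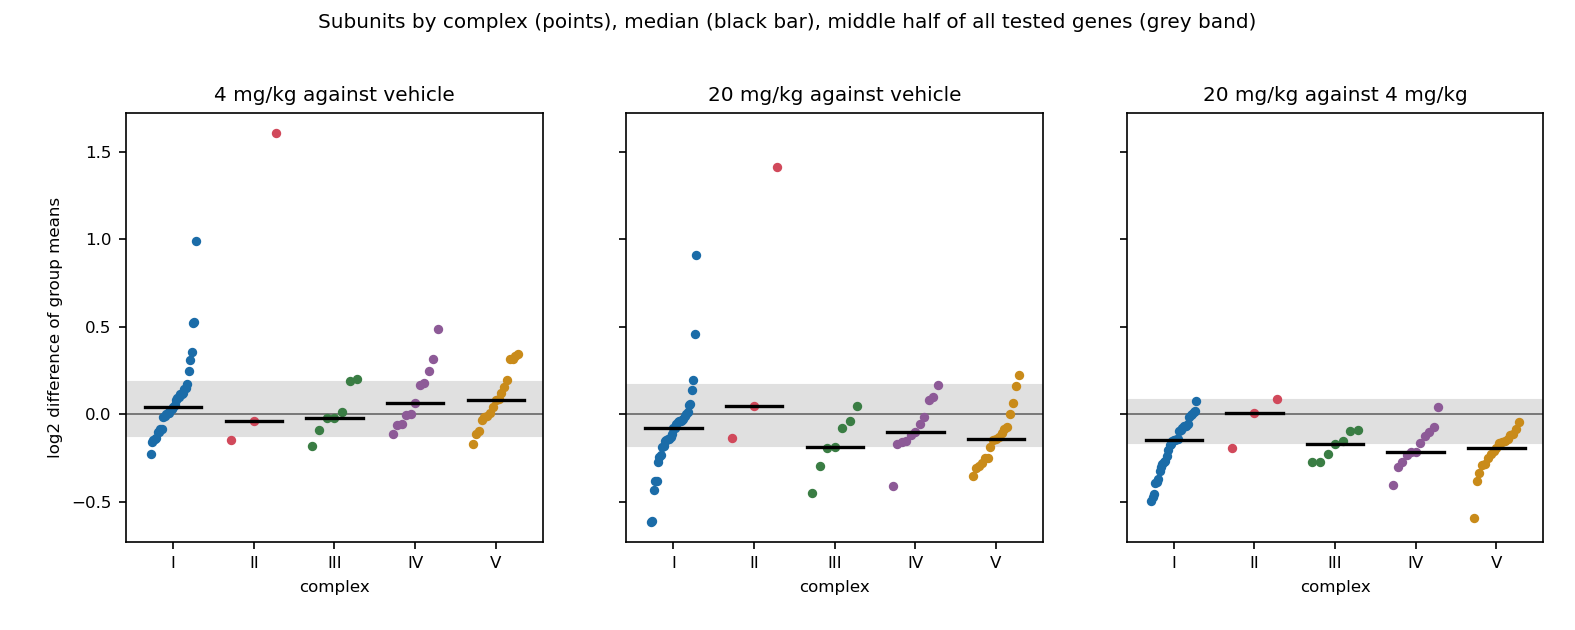
Log2 difference of group means for each tested subunit (points, by complex) in the 3 comparisons, with the complex median (black bar) and the interquartile range of all tested genes (grey band). The medians of complexes I, III, IV and V lie below 0 at 20 mg/kg, at -0.08, -0.18, -0.10 and -0.14, and SDHD stands alone above 1 against vehicle.

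Ordered by array rather than by mean, 29 of 71 subunits, 40.8%, had both 20 mg/kg arrays below the other 4, against 15.2% of all tested genes. They were 13 of complex I, 5 of the 7 of complex III, 2 of complex IV and 9 of the 17 of complex V. Both 4 mg/kg arrays lay above the other 4 for 23 subunits, 32.4%, against 8.24%. This peak at the middle dose held 9 subunits of complex I, SDHD, 3 of complex III, 4 of complex IV and 6 of complex V. No subunit had both 20 mg/kg arrays above the other 4, an order seen in 10.1% of all genes, or both 4 mg/kg arrays below them, seen in 2.85%.

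Orders that set vehicle apart were less frequent among the subunits. Both vehicle arrays were lowest for 6 (ATP5MJ, ATP5PB, COX6C, NDUFA5, NDUFB5 and SDHD), 8.45% against 16.6%. They were highest for 5 (ATP5MC2, NDUFA9, NDUFB11, NDUFB2 and UQCR10), 7.04% against 12.1%. Differences between these shares and those of all genes were not tested, since genes are not replicates. The shares of all genes also come from genes not matched to the subunits in level or in equal values. In vehicle replicate 1 the median log2 intensity was 11.71 over the subunits and 8.56 over all genes. The difference at 20 mg/kg against vehicle was 0 for 2 of 71 subunits and 906 of 10271 genes. Equal values cannot meet a strict order, which lowers the shares of all genes more.

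The counts moved with the scaling. After quantile normalization the low order at 20 mg/kg held 25 subunits against 14.7% of all genes, and the high order at 4 mg/kg held 18 against 8.06%. With centred arrays they held 27 against 13.5% and 9 against 6.04%. Without 4 mg/kg replicate 1, leaving a lone array to satisfy the high order, 40 subunits had it against 27.4% of all genes.

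**Figure D4:**
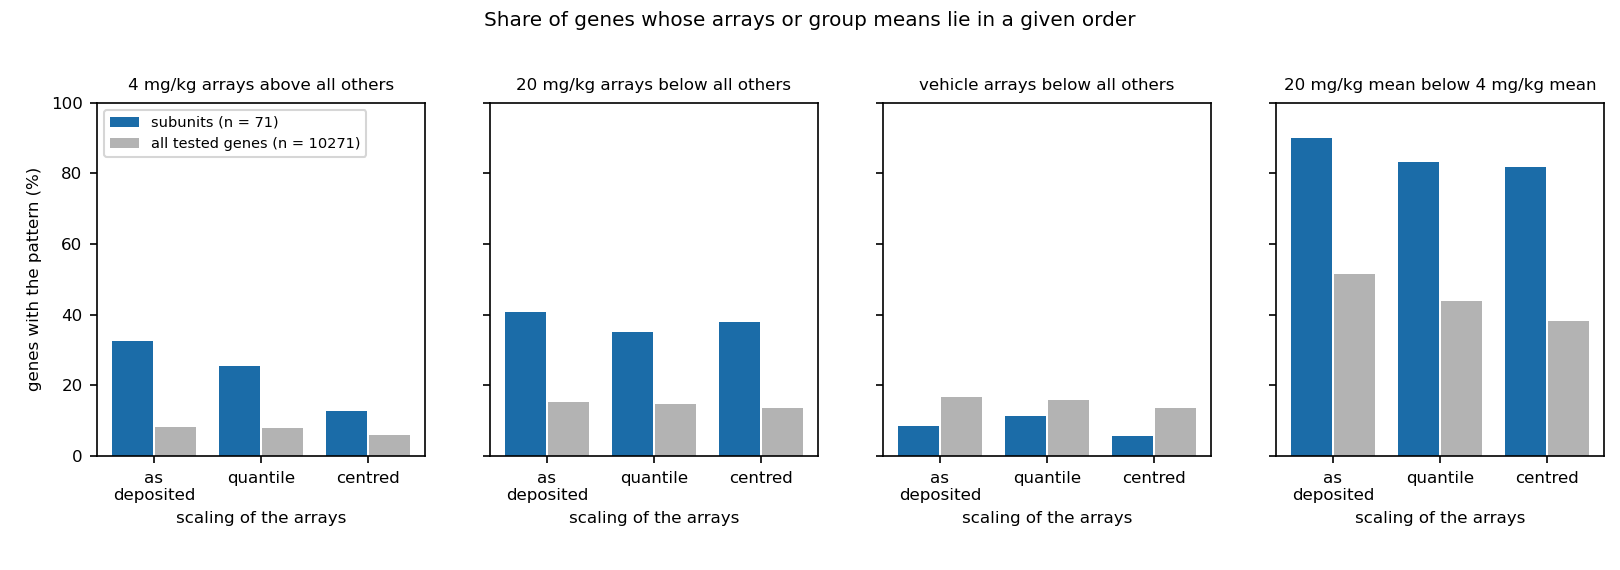
Percentage of the 71 subunits (blue) and of all 10271 tested genes (grey) whose arrays or group means lie in a given order, for the values as deposited, quantile normalized, or centred on each array's median. The share of subunits with both 20 mg/kg arrays lowest is 40.8%, 35.2% and 38% in these settings, and the share with both 4 mg/kg arrays highest is 32.4%, 25.4% and 12.7%.

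The subunits varied little between arrays of a group. Their median residual SD within groups was 0.10 log2 units, against 0.14 over all tested genes. GCRMA values can be exactly equal between arrays: 10 subunits (14.1%) had equal values in both arrays of at least 1 group, against 32.3% of all genes. Within groups, replicate 2 was the higher array for 49 subunits in vehicle, 52 at 4 mg/kg and 45 at 20 mg/kg, which is 69%, 73.2% and 63.4% of them. Over all genes these shares were 47%, 62.8% and 52.6%.

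A second probe set of at least log2 4 existed for 25 tested subunits. It gave the same sign as the brightest for 15 at 20 mg/kg and the opposite sign for 6 (ATP5IF1, COX5B, COX6A1, NDUFA6, NDUFB10 and SDHC). The counts at 4 mg/kg were 15 and 7, and between the doses 13 and 7. Over these 25 genes the median difference between the doses was -0.15 from the brightest and -0.14 from the next probe set.

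Other genes of the same machinery were described from lists chosen by function, with earlier results of these data known. Of 45 tested assembly factors, which build the complexes without staying in them, 1 passed at 20 mg/kg, where 4.33% of all genes did. It was COX20, a chaperone of the copper-bearing COX2 protein of complex IV, which read 9.90 and 9.94 in vehicle, 9.83 and 9.79 at 4 mg/kg, and 9.16 in both 20 mg/kg arrays. It fell by 0.76 ± 0.03 on the log2 scale (adjusted p = 0.0104) and by 0.65 against 4 mg/kg (adjusted p = 0.0259). Without 20 mg/kg replicate 1 or 2 the adjusted p was 0.0766 and 0.0706, and the next brightest probe set gave -0.15. The calls of COX20 were lost in 4 of 16 alternatives against vehicle and in 11 of 16 against 4 mg/kg. The list's median was -0.06.

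Of 11 tested regulators of mitochondrial biogenesis, 2 passed at 20 mg/kg, beside the same 4.33% of all genes. GABPA, the DNA-binding part of the transcription factor GABP that is known to drive many subunit genes, read 8.07 and 7.65 in vehicle, 9.04 and 9.09 after 4 mg/kg, and 9.24 and 9.29 after 20 mg/kg. It rose by 1.41 ± 0.16 (adjusted p = 0.0388), but its next brightest probe set gave -0.02. Over 16 alternatives the call was lost in 7, and the sign changed in 1 more. The call was lost without any 1 of the 4 treated arrays, with an adjusted p of 0.104 without either 4 mg/kg array and of 0.181 and 0.164 without 20 mg/kg replicates 1 and 2. POLG, the mitochondrial DNA polymerase, fell by 0.50 ± 0.06 (adjusted p = 0.0475). This call was lost in 10 of 15 alternatives, among them those without vehicle replicate 2 or without any 1 of the treated arrays. PPARGC1A, the coactivator PGC-1 alpha, lay at the floor of 2.19 in all 6 arrays.

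Among 18 tested genes of the citrate cycle and pyruvate dehydrogenase, 1 passed at 20 mg/kg, again beside 4.33% of all genes. PDHX, which tethers a component of the pyruvate dehydrogenase complex, rose by 1.13 ± 0.15 (adjusted p = 0.0495). This call was lost in 9 of 16 alternatives, among them those without either vehicle or either 20 mg/kg array. The list's median was -0.21. None of 15 tested electron carriers and coenzyme Q genes passed, the largest difference being -0.58 ± 0.14 in PDSS1, which makes the tail of coenzyme Q, followed by 0.30 ± 0.18 in COQ2, which joins that tail to the ring. Of 6 tested ADP/ATP and phosphate carriers and porins 0 passed, and all 6 were below 0, with -0.45 ± 0.08 in the outer membrane channel VDAC1 (adjusted p = 0.0706) and -0.37 ± 0.12 in VDAC2. At an unadjusted p under 0.05 the carriers of electrons held 1 gene and those of ADP, ATP and phosphate held 2, all lower, where 11.5% of all genes were. At 4 mg/kg none of these lists held a gene past the threshold in limma, where 0.0584% of all genes passed. At an unadjusted p under 0.05, 4 assembly factors, 3 regulators, 2 citrate cycle genes and 2 electron carrier genes were higher and 1 assembly factor was lower, beside 12.2% and 4.76% of all genes.

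The mitochondrially encoded subunits could be read for 4 of 13 genes. None passed at either dose or had an unadjusted p under 0.05. MT-CO1, the catalytic subunit of complex IV, read 14.59 and 14.78 in vehicle, 14.70 and 14.75 after 4 mg/kg, and 15.18 and 14.78 after 20 mg/kg, a difference of 0.29 ± 0.16. MT-ND2, of the membrane arm of complex I, differed by -0.09 ± 0.05. The median over the 4 was 0.07 at 20 mg/kg, beside -0.11 over the nuclear-encoded subunits. This gap was not tested. MT-ND2, MT-ND4 and MT-CO1 lay near the highest intensities of the arrays, and how far this limits their differences was not tested.

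**Figure D5:**
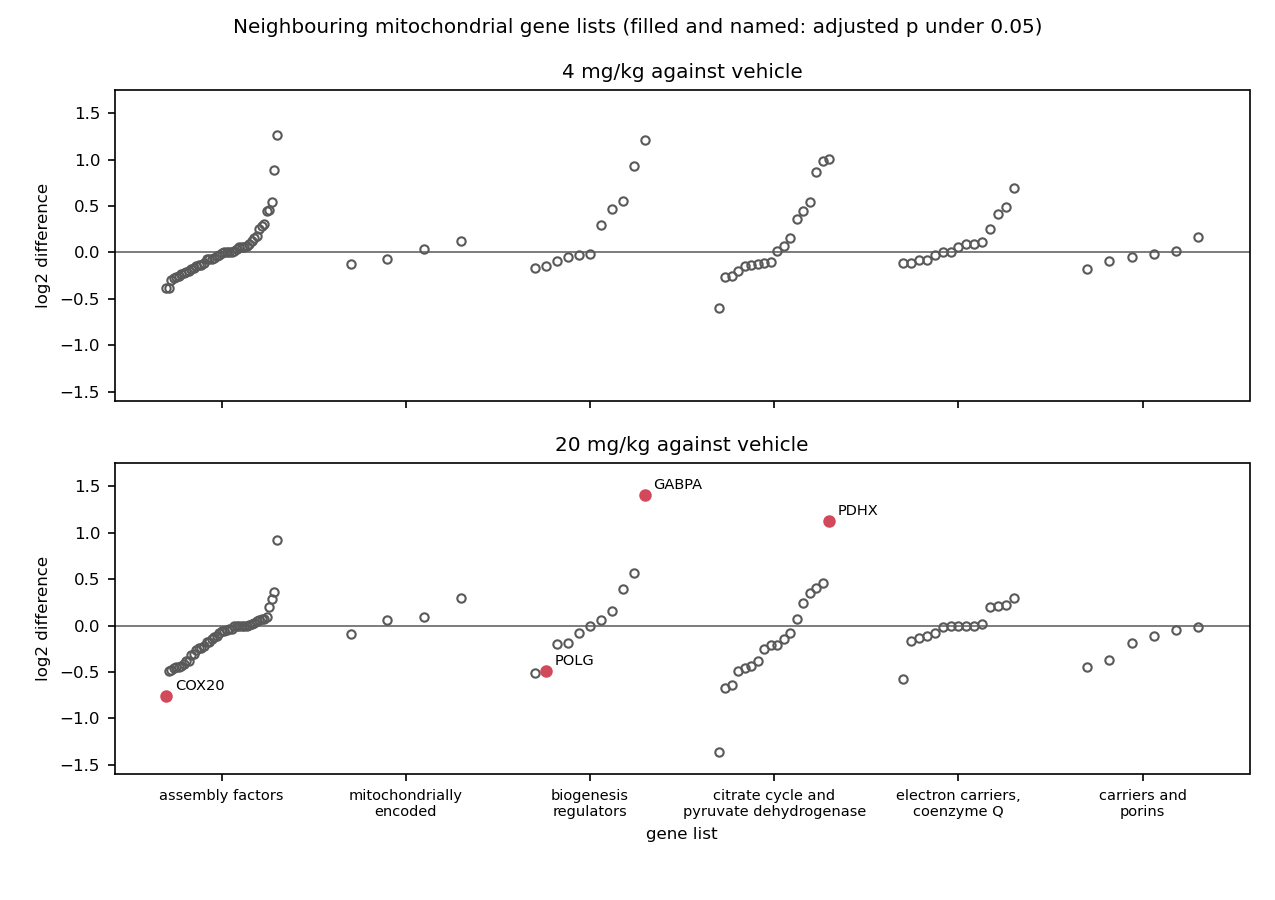
Log2 difference against vehicle at 4 mg/kg (top) and 20 mg/kg (bottom) for each tested gene of 6 lists around the subunits; filled, named points passed an adjusted p of 0.05. Only COX20, POLG, GABPA and PDHX are filled, all of them at 20 mg/kg.

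The tumour markers bear on what tissue these values describe. All 8 epithelial markers were tested, among them the lung lineage factor NKX2-1 at log2 11.55 to 11.74, and their summed intensity ran from 72370 to 79710 in vehicle, 77840 to 81310 at 4 mg/kg and 63620 to 72060 at 20 mg/kg. Of the 8, 1 passed at 20 mg/kg, beside 4.33% of all genes. It was KRT18, a keratin of simple epithelia, which fell by 1.54 (adjusted p = 0.0416). In all, 4 lay below 0 at 20 mg/kg, with KRT8 at -0.88, KRT19 at -0.34 and ALK at -0.08 beside KRT18. The adjusted p of KRT8 in limma was 0.0529. The 4 above 0 included EPCAM at 0.50 and CDH1 at 0.23, neither of which passed. Of 6 fibroblast markers 4 were tested, with sums of 36010 to 38570, 35900 to 37140 and 35250 to 39710, and 2 (PDGFRB and LUM) lay at or near the floor. Most of these sums came from COL1A1 alone, at log2 14.95 to 15.15. At 20 mg/kg against vehicle COL1A1 differed by -0.02, COL1A2 by 0.28, COL3A1 by 0.29 and DCN by 0, and none passed. Leukocyte markers summed to between 73.4 and 77.3 and muscle markers to between 64.5 and 74.2, with 3 of 4 and 4 of 5 under the level required for testing. The part of cell composition in the subunit differences was not tested.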

How the data were processed

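The authors deposited intensity values on a linear scale for 54675 probe sets in 6 arrays, produced by GCRMA under R version 2.10.0 (per the submitters' processing notes). The sources used here do not give which arrays were normalized as one set. GCRMA gives a floor, here an intensity of 4.578 in every array, so differences of genes near it are understated; arrays have no read depth, and their number limits the precision. The deposited intensities were converted to log2 without an offset. Genes were named through the platform's annotation, parts of which may be outdated: 41097 probe sets carry 1 gene, 1801 several and 11777 none. Each gene was read from its single-gene probe set of the highest mean, and genes with a mean log2 under 4 were left out, leaving 10271 of 19775.

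All 6 arrays entered 1 linear model in limma 3.58.1 (lmFit and eBayes, R 4.3.3), with 3 two-sided contrasts, each adjusted over all tested genes by the Benjamini-Hochberg method at 0.05. It had 3 residual and 0.723 prior degrees of freedom. SEs and 95% intervals are limma's. The fit was tested on simulated data. The members, the lists of neighbouring and marker genes and the alternatives were chosen with earlier results of these data known. All 6 arrays are given for the 2 subunits of each complex with the largest absolute difference at each dose, for tissue isoforms and their partners, and for other subunits chosen after their values were seen. From each neighbouring list the genes past the threshold are named (up to 4), otherwise the 2 with the largest difference. NDUFAB1, NDUFS6, NDUFA13, NDUFB2 and ATP5PD are among the subunits chosen after their values were seen, and so was PPARGC1A among the regulators. Alternatives were another scaling, level filter, offset or probe set, a replicate block, the compared arrays alone, and each array left out in turn. Sequences and genome coordinates were not used here.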

Additional observations from a re-analysis of the deposited data

How the results depend on the processing

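With 2 arrays a group, the number of genes past the threshold depended on single arrays and on the scaling; the cause was not tested. For 20 mg/kg against vehicle, 445 genes passed, and 93 did with a replicate block, 57 with no level filter, 1536 with quantile normalization, 1958 with centred arrays, 207 with the next brightest probe set, 285 without _x_at and _s_at probe sets and 136 with only the 4 arrays compared. For 4 mg/kg against vehicle, 6 passed. No gene did with the block, a level of at least 6, log2(value + 16), the next or the mean of all probe sets (0 each) or with 4 arrays (0), against 3 with no filter, 41 with quantile normalization (30 higher, 11 lower) and 766 with centred arrays (517 higher, 249 lower). For 20 against 4 mg/kg, 38 passed (13 higher, 25 lower), with 0 under the block and with 4 arrays, 8 with no filter, 333 with quantile normalization (151 higher, 182 lower), 494 with centred arrays (227 higher, 267 lower) and 20 with the next probe set. With each array left out in turn, these 3 counts ran from 5 to 805, 0 to 468 and 0 to 214. The lowest for 20 mg/kg against vehicle came without 20 mg/kg replicate 2 and the highest of the first 2 without vehicle replicate 1; the 214 came without 4 mg/kg replicate 1.

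Of the subunits, 0 passed in each comparison, and with arrays left out in turn 0 to 6, 0 to 4 and 0 to 1. At 20 mg/kg against vehicle 1 of 78 subunits passed with no level filter, 1.28% against 0.288% of all genes. It was NDUFB11, which differed by -0.03. With quantile normalization 4 passed (COX8A, NDUFA5, NDUFS6 and SDHD), 5.63% against 15%, and with centred arrays 9, 12.7% against 19.1%. The next probe set gave 1 of 52 (1.92% against 2.86%) and the mean of probe sets 1 of 70 (1.43% against 5.34%), ATP5F1D in both. With the 4 arrays compared 1 passed (NDUFS6), 1.41% against 1.32%. At 4 mg/kg 2 passed with centred arrays, 2.82% against 7.46%. Between the doses 1 passed with quantile normalization (NDUFS6), 1.41% against 3.24%. With the next probe set 1 of 52 did (ATP5F1D), 1.92% against 0.276%. The subunits' median stayed below 0 for 20 mg/kg in all alternatives. Centring moved it from 0.0393 to -0.0594 at 4 mg/kg and from -0.1643 to -0.0973 between the doses. Leaving out arrays gave -0.1346 to -0.067, 0 to 0.0872 and -0.2165 to -0.1132. The replicate block changed none of these medians or subunit counts. Over all tested genes the deviations of replicate 1 correlated at 0.146, -0.118 and 0.127 between pairs of groups. Among the subunits, replicate 2 was the higher array for most of them in each group. Whether arrays of the same replicate number share a batch is not stated in the labels and was not tested. Over 37 values of named genes and 573 alternatives, 496 kept direction and side of the threshold, 30 newly passed, 41 no longer passed and 6 changed sign. The sign changes were SDHC at 20 mg/kg without vehicle replicate 2 (0.0002, the highest of -0.2761 to 0.0002 over left-out arrays) and with the next probe set (0.059), SDHC at 4 mg/kg with the next probe set (0.2353), GABPA at 20 mg/kg with it (-0.0188), and ATP5IF1 at 4 mg/kg with it (-0.0008) and without _x_at and _s_at probe sets (-0.0132).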
